A study of Mus musculus with 12 samples.

Results

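The non-collagen part of the basement membrane was followed in murine BrafV600E melanoma cells through 10 genes, which were taken by name from the deposited table of 30705 genes. The genes encode laminin chains (*lama4*, *lama5*, *lamb1*, *lamb2*, *lamc1*), the nidogens (*nid1*, *nid2*), the heparan sulfate proteoglycans perlecan and agrin (*hspg2*, *agrn*) and the collagen-binding protein osteonectin (*sparc*). The question was whether their mRNA levels moved with those of type IV collagen, *col4a1* and *col4a2*, when genes of prostaglandin E2 synthesis were edited. The cells came from a C57BL/6 mouse heterozygous for the Braf LSL-V600E allele, with a Tyr::CreERT2 transgene and loss of p16INK4a. They carried Braf V600E, and all 4 lines shared that background. Scramble cells were the control, *ptgs1*-KO cells were edited in the gene of COX-1, *ptgs2*-KO cells in that of COX-2 and *ptges*-KO cells in that of mPGES-1, and each line gave 3 samples of cultured cells without further treatment. The knockouts were made with CRISPR/Cas9, selected with puromycin and subcloned by limiting dilution. The study describes the RNA of each line as taken from different subclones, which the labels do not state, so the p-values below measure the spread between such samples and not between independently edited cell pools. Of the 10 genes, 9 reached a mean of 1 RPKM, a read count scaled for transcript length and library size, and were tested, along with 11282 genes in all.

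Basement membranes are thin sheets of matrix that carry epithelia, vessels and nerves and that tumor cells meet, and also secrete, at tissue borders. Each laminin is a cross-shaped trimer of an alpha, a beta and a gamma chain. The trimer forms inside the cell from a beta-gamma pair and then leaves once an alpha chain has joined, and the alpha chain carries the main binding sites for integrins and dystroglycan. Laminin sheets lie on the cell surface, type IV collagen forms a second network, and nidogens, perlecan and agrin tie these together.

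Estimated depth was between 13.2 and 17.12 M reads per sample, and samples of the same line correlated with r between 0.984 and 0.995 over the tested genes. The targeted gene was lower in the line named for it, with log2 changes against scramble of −3.16 for *ptgs1* in *ptgs1*-KO, −3.24 for *ptgs2* in *ptgs2*-KO and −1.05 for *ptges* in *ptges*-KO cells, where 47.9% of its scramble level remained. In *ptgs1*-KO cells the other two targets were also lower, *ptgs2* at 78.5% (−0.36, adjusted p = 0.0386) and *ptges* at 70.2% of scramble (−0.50, adjusted p = 0.0011). In *ptgs2*-KO and *ptges*-KO cells no target other than the edited one passed the test. mRNA does not show whether the protein was lost, which the study assessed by Western blotting. Of 7 melanocyte markers, 4 were at 0 in every sample (*sox10*, *dct*, *tyrp1*, *mlana*) and *mitf* alone reached a mean of 1 RPKM. Endothelial markers summed to 0.28 RPKM or less in every sample, so that vessel cells, which make much basement membrane in tissue, had next to no mRNA here.

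Most of these genes were abundant, and they did not respond as a block. In *ptges*-KO cells the laminin chains *lama5*, *lamb1*, *lamb2* and *lamc1* and both proteoglycans fell compared with scramble cells, *nid2* rose, and *nid1* and *sparc* did not pass the test. Of the 9 tested genes, 6 were lower and 1 was higher in *ptges*-KO cells, where 26.3% of all tested genes passed the test (14.4% lower, 11.9% higher). In *ptgs2*-KO cells 3 were lower (*lama5*, *lamb2*, *agrn*) and 1 was higher (*nid2*), against 11.1% of all tested genes (5.17% lower, 5.97% higher). In *ptgs1*-KO cells 2 were higher, both nidogens, and none was lower by limma at an adjusted p under 0.05, against 9.26% of all tested genes (4.65% higher, 4.61% lower). At an unadjusted p under 0.05 limma gave 3 higher and 1 lower in that line, and a Tukey test on RPKM 3 and 0. In bulk cultures, fewer cells with a transcript and less of it per cell cannot be told apart. The median log2 change of the 9 genes was 0.16 in *ptgs1*-KO, −0.25 in *ptgs2*-KO and −0.57 in *ptges*-KO cells, and that of all tested genes was 0.01, 0.01 and −0.03. Over the 4 lines together 8 of the 9 genes differed by limma's F test, with *sparc* the exception (adjusted p = 0.284), against 38.6% of all tested genes.

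**Figure D1:**
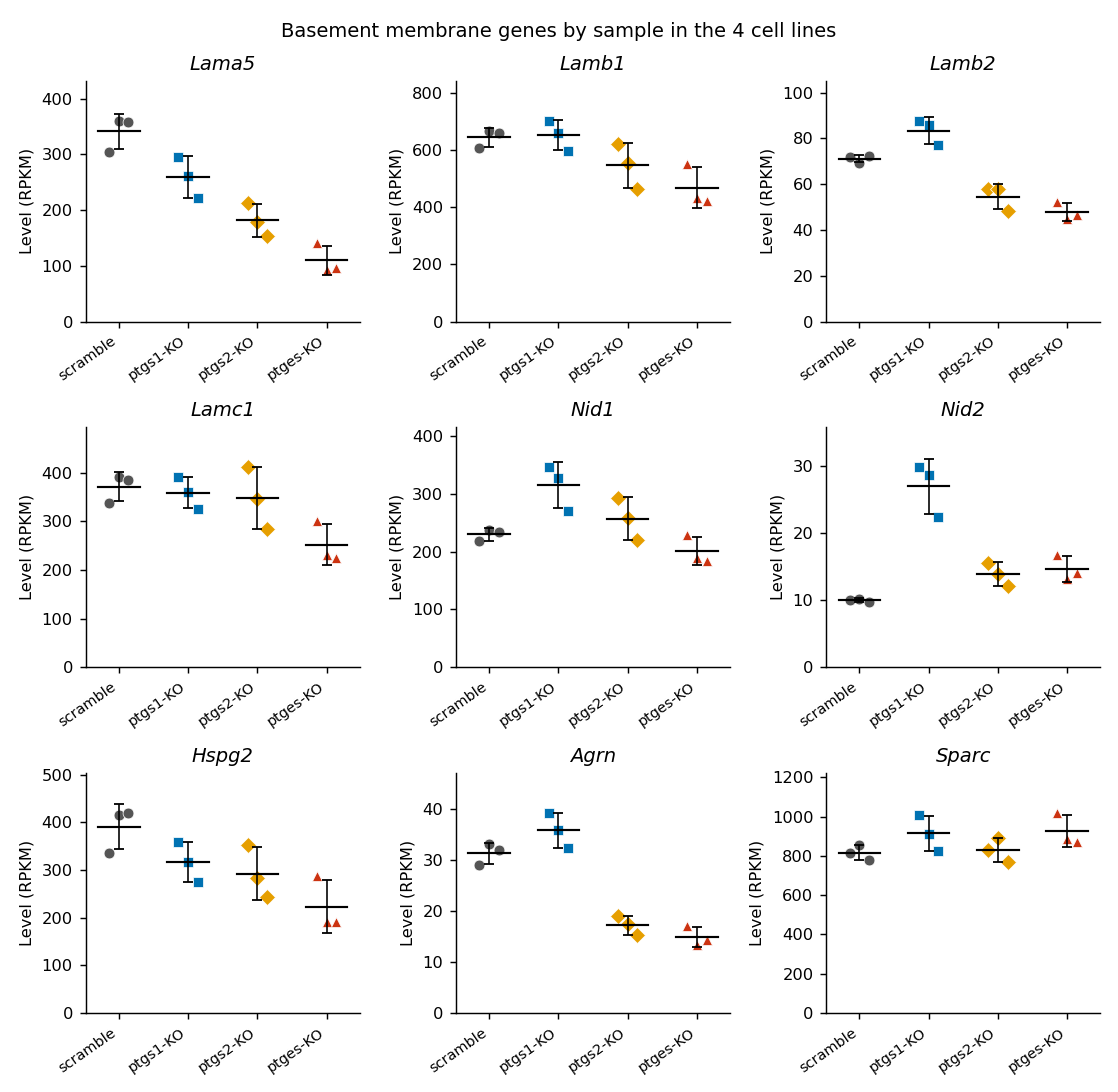
mRNA level in RPKM of the 9 tested basement membrane genes in each of the 12 samples, by line; horizontal lines are means and error bars are SD (n = 3). *Lama5* and *Agrn* stand lowest in *ptges*-KO cells, *Nid2* stands highest in *ptgs1*-KO cells, and *Sparc* lies between 771 and 1019 RPKM everywhere.

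The laminin alpha chain of these cells was alpha 5. *lama5*, which encodes the alpha chain of laminin-511 and laminin-521, stood at 305, 360 and 359 RPKM in the scramble samples. It was at 296, 262 and 221 RPKM in *ptgs1*-KO, at 213, 179 and 153 RPKM in *ptgs2*-KO and at 140, 92.6 and 96.9 RPKM in *ptges*-KO cells. The scramble values lay above all others and the *ptges*-KO values below all others. Lying wholly below scramble was seen for 23% of all tested genes in *ptges*-KO cells and 15.8% in *ptgs2*-KO cells. *ptges*-KO cells averaged 110 ± 26.4 RPKM (SD, n = 3) and scramble cells 341 ± 31.2 RPKM, which left 32.2% of the control level. On the log2 scale *lama5* fell by 1.65 ± 0.16 (SE) in *ptges*-KO cells (adjusted p = 1.35e-05) and fell by 0.92 ± 0.16 in *ptgs2*-KO cells (adjusted p = 0.00315). In *ptgs1*-KO cells the difference was −0.40 ± 0.16, which did not pass the test (adjusted p = 0.155), although the 3 samples lay below the scramble samples, as 13.2% of all tested genes did. After each sample's trend with transcript length and GC content was removed, this difference was −0.50 (adjusted p = 0.000907).

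*lama4*, the alpha chain of laminin-411 and a product of vessel and mesenchymal cells, was at 0 in the 9 samples of the scramble, *ptgs1*-KO and *ptgs2*-KO lines. It was at 0.01, 0.02 and 0.01 RPKM in *ptges*-KO cells. A single read of *lama4* was worth between 0.0097 and 0.0125 RPKM and 3 reads between 0.029 and 0.0376 RPKM, so all 12 values lay below the level of 3 reads and no line could be told from another at this depth. *lama1*, *lama2* and *lama3* were at 0.09 RPKM or less in every sample, and *lama5* gave over 99.9% of the summed alpha-chain RPKM in each line.

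The 250 bases before the annotated start of *lama5* are shown because this chain fell most. They span chr2:180225860-180226109 on the minus strand (RefSeq, GRCm38.p6), directly before the gene at chr2:180176373-180225859, and contain no annotated exon. Capitals mark GC boxes (GGGCGG, or CCGCCC on the other strand) and the cAMP response half-site (TGACG, or CGTCA on the other strand).
Lama5: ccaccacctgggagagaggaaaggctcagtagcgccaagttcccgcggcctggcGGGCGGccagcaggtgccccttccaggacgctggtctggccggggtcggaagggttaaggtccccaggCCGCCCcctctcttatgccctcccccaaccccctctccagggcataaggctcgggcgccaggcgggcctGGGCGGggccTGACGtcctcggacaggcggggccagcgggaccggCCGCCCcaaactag
The window held 4 GC boxes and 1 cAMP response half-site. Of 32536 windows of the same length, 33.0% held a GC box and 17.9% the half-site. These letters mark matches and not occupied sites. The AP-1 element (TGANTCA) was searched on both strands and was not in the window. The CCAAT and TATA boxes, by those letters and TATAAA, were not in it either.

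The beta chains fell less than the alpha chain. *lamb1*, the beta chain of laminin-411 and laminin-511, was the most abundant laminin mRNA and stood at 607, 667 and 658 RPKM in scramble cells. In *ptges*-KO cells it was at 550, 432 and 422 RPKM, below every scramble sample, as 23.0% of all tested genes were. The log2 change of *lamb1* was −0.47 ± 0.12 (adjusted p = 0.0128). Without *ptges*-KO replicate 2 or replicate 3 this call was lost (adjusted p = 0.0582 and 0.0567). The *ptgs2*-KO samples, at 620, 553 and 465 RPKM, overlapped with scramble (log2 difference −0.25 ± 0.12, adjusted p = 0.213), and the difference passed the test once length and GC trends were removed (−0.28, adjusted p = 0.00834). The *ptgs1*-KO samples, at 701, 661 and 597 RPKM, differed from scramble by 0.02 ± 0.12, with a 95% interval from −0.25 to 0.28.

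*lamb2*, the beta chain of laminin-521 and laminin-421, was expressed at a lower level, with scramble samples at 72.1, 69.4 and 72.1 RPKM. It was at 57.9, 57.7 and 48.1 RPKM in *ptgs2*-KO and at 52.4, 44.7 and 46.6 RPKM in *ptges*-KO cells, below the scramble samples in both lines. *lamb2* fell by 0.38 ± 0.09 in *ptgs2*-KO cells (adjusted p = 0.0153) and fell by 0.57 ± 0.09 in *ptges*-KO cells (adjusted p = 0.000639). The first call was lost without scramble replicate 1 (adjusted p = 0.0575), scramble replicate 3 (0.0534) or *ptgs2*-KO replicate 3 (0.067). The *ptgs1*-KO samples, at 87.6, 85.9 and 76.9 RPKM, lay above scramble, as 13.7% of all tested genes did, and the difference of 0.22 ± 0.09 did not pass the test (adjusted p = 0.148). It passed after median ratio scaling (0.21, adjusted p = 0.0444), after quantile normalization (0.25, adjusted p = 0.0215) and by the Tukey test on RPKM (adjusted p = 0.0428).

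*lamc1*, the gamma chain shared by most laminins, stood at 338, 391 and 386 RPKM in scramble cells and at 302, 230 and 225 RPKM in *ptges*-KO cells. It fell by 0.57 ± 0.14 in *ptges*-KO cells (adjusted p = 0.00973), with every sample below scramble, as in 23.0% of all tested genes. The *ptgs1*-KO samples, at 391, 361 and 326 RPKM, and the *ptgs2*-KO samples, at 412, 347 and 285 RPKM, overlapped with scramble, with differences of −0.05 ± 0.14 and −0.11 ± 0.14 (adjusted p = 0.873 and 0.665).

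Because a trimer takes one chain of each kind, the RPKM of the chains were summed by kind and set against each other within each sample. The summed alpha chains came to 88.8, 90.7 and 91.7% of the summed gamma chains in scramble cells. The ratio was 74.3, 70.9 and 66.4% in *ptgs1*-KO, 50.7, 50.3 and 52.0% in *ptgs2*-KO and 45.2, 38.9 and 41.3% in *ptges*-KO cells. The 4 lines did not overlap, and all 3 knockout lines lay below scramble. The means were 90.4 ± 1.51%, 70.5 ± 3.95%, 51.0 ± 0.921% and 41.8 ± 3.21% (SD, n = 3), and an exact permutation test over the lines gave p = 6.5e-05, the smallest that 15400 divisions of the samples allow (adjusted p = 1.3e-04 over 4 such ratios). The summed beta chains per gamma chains moved over a narrower range, from 169 ± 7.02% in *ptgs2*-KO to 201 ± 2.75% in *ptgs1*-KO cells, with scramble at 190 ± 6.59% and *ptges*-KO at 198 ± 3.35% (exact permutation p = 9.7e-04, adjusted p = 0.0013). In this second ratio the *ptges*-KO samples overlapped with the scramble samples and with the *ptgs1*-KO samples. Ratios of mRNA do not give the trimers made. The 4 ratios were not recomputed with length and GC trends removed or under another alternative. The transcripts of *lama5* and *lamc1*, which gave most of the alpha and gamma sums, have 11388 and 7622 bases. How often ratios of other genes part the lines in this way was not counted. By limma's F test 38.6% of all tested genes differed over the 4 lines.

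**Figure D2:**
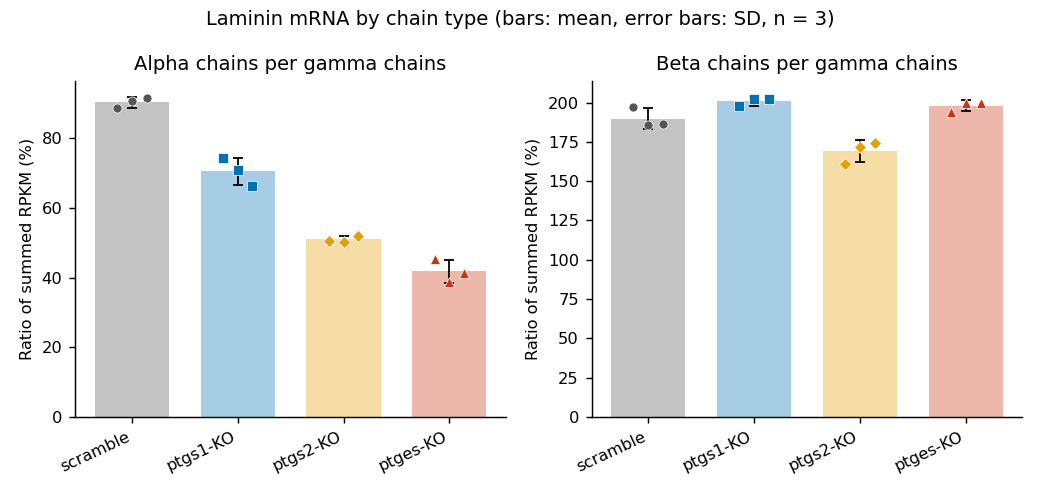
Summed RPKM of laminin alpha chains (left) and beta chains (right) as a percentage of the summed gamma chains of the same sample; bars are means, error bars SD (n = 3) and points samples. Mean alpha per gamma runs from 90.4% in scramble to 41.8% in *ptges*-KO cells. Line means of beta per gamma lie between 169 and 201%, and samples between 161 and 203%.

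The nidogens link laminin to type IV collagen and perlecan. Neither fell in a knockout line by the test, and both rose in *ptgs1*-KO cells. *nid1* stood at 218, 237 and 234 RPKM in scramble cells and at 346, 327 and 271 RPKM in *ptgs1*-KO cells, above every scramble sample. In that line 13.7% of all tested genes lay wholly above scramble. *nid1* rose by 0.45 ± 0.12 in *ptgs1*-KO cells (adjusted p = 0.0346). This call was lost without any 1 of 5 libraries, namely the 3 scramble replicates (adjusted p = 0.127, 0.0781 and 0.08) and *ptgs1*-KO replicates 1 and 2 (0.129 and 0.101), and its size then lay between 0.37 and 0.47. In *ptgs2*-KO cells *nid1* was at 293, 259 and 220 RPKM and in *ptges*-KO cells at 228, 189 and 185 RPKM, and both lines overlapped with scramble (log2 differences 0.15 ± 0.12 and −0.20 ± 0.12, adjusted p = 0.45 and 0.248).

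*nid2*, the less abundant nidogen, was higher in all 3 knockout lines, whose samples all lay above the scramble samples. It stood at 10.0, 10.2 and 9.65 RPKM in scramble, at 29.8, 28.6 and 22.3 RPKM in *ptgs1*-KO, at 15.6, 13.9 and 12.1 RPKM in *ptgs2*-KO and at 16.8, 13.1 and 14.1 RPKM in *ptges*-KO cells. Lying wholly above scramble was seen for 13.7% of all tested genes in *ptgs1*-KO, 19.4% in *ptgs2*-KO and 20.3% in *ptges*-KO cells. The *ptgs1*-KO mean was 270% of scramble (log2 change 1.34 ± 0.13, adjusted p = 1.29e-05). The changes in *ptgs2*-KO and *ptges*-KO cells were smaller, at 0.43 ± 0.13 (adjusted p = 0.0443) and 0.50 ± 0.13 (adjusted p = 0.0107), and neither passed the Tukey test on RPKM (adjusted p = 0.272 and 0.16). The *ptgs2*-KO call was lost without any scramble replicate (adjusted p = 0.108, 0.0949 and 0.116), without *ptgs2*-KO replicate 1 or 2 (0.151 and 0.104), without *ptgs1*-KO replicate 2 (0.0541) and without *ptges*-KO replicate 2 or 3 (0.053 and 0.0583). *nid2* made up 4.16 ± 0.226% of the summed nidogen RPKM in scramble cells, 7.86 ± 0.223% in *ptgs1*-KO, 5.12 ± 0.0858% in *ptgs2*-KO and 6.80 ± 0.306% in *ptges*-KO cells, with no overlap between lines (exact permutation p = 6.5e-05, adjusted p = 1.3e-04).

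Both proteoglycans were lower in *ptges*-KO cells. *hspg2* encodes perlecan, a large heparan sulfate proteoglycan that binds growth factors, and stood at 336, 415 and 420 RPKM in scramble and at 287, 192 and 190 RPKM in *ptges*-KO cells. It fell by 0.83 ± 0.17 in *ptges*-KO cells (adjusted p = 0.00368), and by 0.48 once length and GC trends were removed (adjusted p = 0.000647). The *ptgs1*-KO samples (358, 318 and 274 RPKM) and the *ptgs2*-KO samples (352, 283 and 243 RPKM) each overlapped with scramble through scramble replicate 1, and their differences of −0.30 ± 0.17 and −0.42 ± 0.17 did not pass the test (adjusted p = 0.317 and 0.13). With those trends removed they were −0.42 (adjusted p = 0.00319) and −0.36 (adjusted p = 0.00766).

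*agrn* encodes agrin, a heparan sulfate proteoglycan best known for clustering acetylcholine receptors at the nerve-muscle junction, which also binds laminin and dystroglycan. It stood at 29.1, 33.1 and 31.9 RPKM in scramble and at 39.3, 35.9 and 32.3 RPKM in *ptgs1*-KO cells, which overlapped. It was at 19.0, 17.4 and 15.3 RPKM in *ptgs2*-KO and at 17.0, 13.4 and 14.4 RPKM in *ptges*-KO cells, and the highest of these 6 values lay below the lowest scramble value. Of all tested genes 15.8% in *ptgs2*-KO and 23.0% in *ptges*-KO cells lay wholly below scramble. *agrn* fell by 0.83 ± 0.11 in *ptgs2*-KO cells (adjusted p = 0.000377) and fell by 1.03 ± 0.11 in *ptges*-KO cells (adjusted p = 2.75e-05), to 55.0% and 47.6% of the scramble mean. The 250 bases before its outermost listed start, chr4:156197489-156197738 on the minus strand (RefSeq, GRCm38.p6), are shown as the other gene with a large fall in both lines, with GC boxes in capitals as above.
Agrn: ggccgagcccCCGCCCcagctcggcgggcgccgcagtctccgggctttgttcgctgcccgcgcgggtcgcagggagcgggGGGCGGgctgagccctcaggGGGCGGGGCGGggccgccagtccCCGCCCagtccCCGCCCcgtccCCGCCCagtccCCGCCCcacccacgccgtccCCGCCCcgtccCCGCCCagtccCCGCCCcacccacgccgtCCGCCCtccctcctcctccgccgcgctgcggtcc
The *agrn* window held 12 GC boxes, some of them overlapping, and no cAMP response half-site, and its GC content was 83.6%, against 72.4% in the *lama5* window and a median of 52.4% over all windows. For *agrn* 2 windows were listed, and these values describe the outermost alone. Windows were matched for 7 of the 10 genes. GC boxes numbered 5 for *hspg2*, 2 for *lamb1*, 1 for *nid1* and 0 for *lamb2* and *sparc*, and of these 7 windows the half-site was in that of *lama5* alone. The windows of these 5 genes were not wholly before the GENCODE gene. Those of *hspg2*, *lamb1*, *nid1* and *lamb2* ran past its start. The *sparc* window, chr11:55420081-55420330, lay inside the gene at chr11:55394500-55423183, so its count does not describe the bases before that gene.

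*sparc*, a secreted collagen-binding glycoprotein that takes part in the placement of type IV collagen, was the most abundant of the genes. It stood at 814, 854 and 780 RPKM in scramble, at 1006, 913 and 827 RPKM in *ptgs1*-KO, at 829, 890 and 771 RPKM in *ptgs2*-KO and at 1019, 887 and 868 RPKM in *ptges*-KO cells. The *ptges*-KO samples lay above scramble, as 20.3% of all tested genes did, but the difference of 0.18 ± 0.10 did not pass the test (95% interval −0.03 to 0.39, adjusted p = 0.205). The intervals in the other lines ran from −0.05 to 0.37 in *ptgs1*-KO and from −0.19 to 0.23 in *ptgs2*-KO cells.

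**Figure D3:**
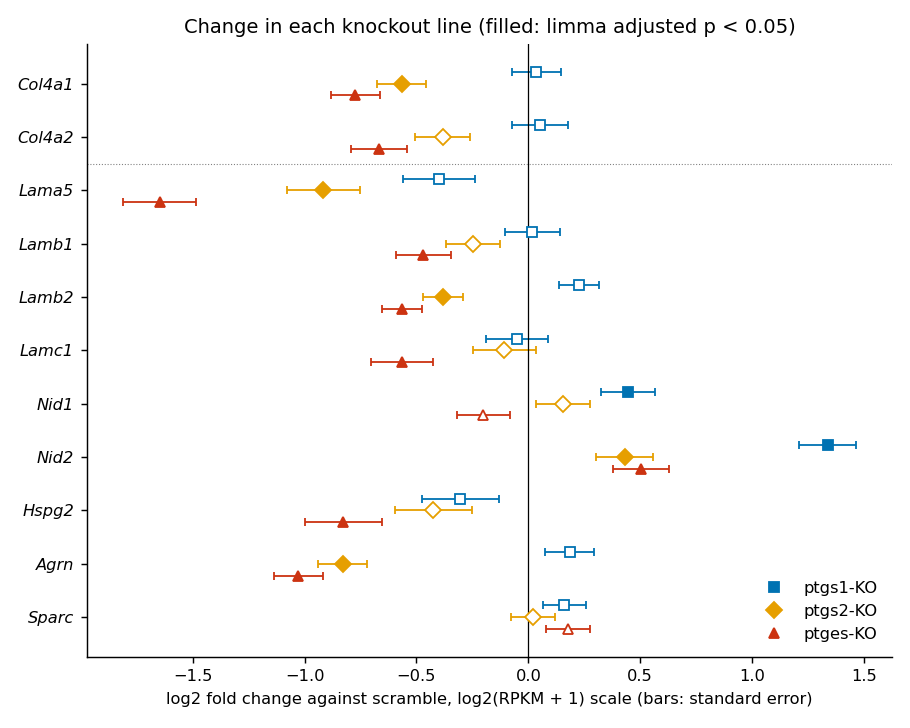
log2 fold change against scramble on the log2(RPKM + 1) scale for type IV collagen (above the dotted line) and the 9 tested genes in each knockout line; bars are standard errors and filled symbols have a limma adjusted p under 0.05. *Lama5* in *ptges*-KO cells lies furthest to the left at −1.65, *Nid2* lies right of 0 in all 3 lines, and *Sparc* is not filled in any line.

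COX-2 and mPGES-1 act in turn on the same route to prostaglandin E2, and so the lines edited in their genes were compared directly. In *ptges*-KO cells 2 of the 9 genes stood lower than in *ptgs2*-KO cells and 0 stood higher by limma (4 and 0 at an unadjusted p under 0.05, none either way by the Tukey test), against 16.6% of all tested genes (9.84% lower, 6.76% higher). *lama5* was lower by 0.73 ± 0.16 on the log2 scale (95% interval 0.38 to 1.08 lower, adjusted p = 0.00779), with every *ptges*-KO sample below every *ptgs2*-KO sample, as in 19.1% of all tested genes. With length and GC trends removed the differences of *lama5* and *lamc1* were −0.48 and −0.29 (adjusted p = 0.000868 and 0.0122). *lamc1* was lower by 0.46 ± 0.14 (adjusted p = 0.0393), although the highest *ptges*-KO sample, replicate 1 at 302 RPKM, lay above the lowest *ptgs2*-KO sample. The *lamc1* call held in 14 of 25 settings of the analysis and was lost without scramble replicate 2 (0.0524) or 3 (0.0532), *ptgs1*-KO replicate 2 (0.0513), *ptgs2*-KO replicate 1 (0.159) or 2 (0.0942), or *ptges*-KO replicate 2 (0.146) or 3 (0.154), the values being adjusted p. The differences of the other 7 genes did not pass the test. They were −0.40 for *hspg2* (95% interval −0.77 to −0.03), −0.35 for *nid1* (−0.61 to −0.09), −0.22 for *lamb1* (−0.49 to 0.04), −0.20 for *agrn* (−0.44 to 0.04), −0.18 for *lamb2* (−0.38 to 0.01), 0.07 for *nid2* (−0.20 to 0.35) and 0.16 for *sparc* (−0.06 to 0.37). Of these, *nid1* passed in 9 of 25 settings. Same-numbered samples of these 2 lines deviated together, and with the replicate block its adjusted p was 0.0289 in place of 0.0625. It also passed after median ratio scaling (0.0346), quantile normalization (0.0219), scaling to the total without the 20 highest genes (0.0258) and removal of length and GC trends (−0.23, adjusted p = 0.0229), and without *ptgs1*-KO replicate 3 (0.0418), *ptgs2*-KO replicate 3 (0.025) or *ptges*-KO replicate 1 (0.0236). *hspg2* passed without *ptges*-KO replicate 1 (−0.60, adjusted p = 0.0171).

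Type IV collagen was then used as the yardstick. *col4a1* stood at 485, 526 and 513 RPKM in scramble, at 565, 522 and 477 in *ptgs1*-KO, at 398, 341 and 297 in *ptgs2*-KO and at 332, 281 and 279 RPKM in *ptges*-KO cells. *col4a2* stood at 329, 367 and 356 RPKM in scramble, at 394, 363 and 336 in *ptgs1*-KO, at 320, 264 and 229 in *ptgs2*-KO and at 259, 205 and 203 RPKM in *ptges*-KO cells. *col4a1* fell in *ptgs2*-KO and *ptges*-KO cells (−0.57 and −0.77, adjusted p = 0.00537 and 0.00028), and *col4a2* fell in *ptges*-KO cells (−0.67, adjusted p = 0.00194) while its difference of −0.38 in *ptgs2*-KO cells did not pass (adjusted p = 0.0663). Each gene's log2 level minus the mean of these 2 chains in the same sample was tested as a ratio to type IV collagen, so that a value of 0 means a gene that moved as the mean of both chains did. The chains themselves did not keep 1 ratio. *col4a2* came to 69.1 ± 1.03% of *col4a1* in scramble, 69.9 ± 0.468% in *ptgs1*-KO, 78.4 ± 1.89% in *ptgs2*-KO and 74.4 ± 3.15% in *ptges*-KO cells (SD, n = 3, exact permutation p = 0.0015, adjusted p = 0.0015 over the 4 ratios).

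In *ptges*-KO cells *lamb2*, *lamc1* and *hspg2* stayed near the collagen. Their ratios to it differed from scramble by 0.15 (95% interval −0.03 to 0.34), 0.15 (−0.01 to 0.32) and −0.11 (−0.32 to 0.11) on the log2 scale, and none passed the test (adjusted p = 0.11, 0.0738 and 0.328). *lama5* and *agrn* fell further than the collagen, by 0.93 ± 0.09 (adjusted p = 7.23e-06) and 0.31 ± 0.08 (adjusted p = 0.00273) more on the log2 scale. Relative to the collagen *lamb1* was higher by 0.25 ± 0.08 (adjusted p = 0.0103), *nid1* by 0.52 ± 0.07 (5.18e-05), *sparc* by 0.90 ± 0.11 (2.33e-05) and *nid2* by 1.22 ± 0.09 (1.85e-06). The collagen itself fell, so 84.9% of all tested genes differed from it in this comparison, with 83.8% higher and 1.08% lower, and the median of all tested genes was 0.69. The *lamb1* ratio was lost as a call with length and GC trends removed (0.13, adjusted p = 0.0654) and with *col4a5* added to the yardstick (0.17, adjusted p = 0.0647).

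In *ptgs2*-KO cells 68.3% of all tested genes differed from the collagen (67.4% higher, 0.966% lower, median 0.48). *lama5* and *agrn* again lay below it, by 0.44 ± 0.09 and 0.36 ± 0.08 (adjusted p = 0.00153 and 0.00173), and *lamb1*, *lamc1*, *nid1*, *sparc* and *nid2* lay above it, by 0.23 ± 0.08, 0.37 ± 0.08, 0.63 ± 0.07, 0.50 ± 0.11 and 0.91 ± 0.09 (adjusted p = 0.0216, 0.00132, 7.47e-05, 0.00217 and 3.93e-05). With *col4a5* in the yardstick the values of *lamb1* and *lamc1* were 0.04 (adjusted p = 0.713) and 0.18 (0.0852). The *lamb1* call was also lost without scramble replicate 1 (0.0563) or 2 (0.0531) or *ptgs2*-KO replicate 2 (0.0834). *lamb2* and *hspg2* differed from the collagen by 0.09 (−0.10 to 0.28) and 0.05 (−0.17 to 0.27), which did not pass.

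In *ptgs1*-KO cells, where neither collagen chain passed the test (0.04 and 0.05, adjusted p = 0.884 and 0.844), 5.66% of all tested genes differed from it (2.68% higher, 2.99% lower). *lama5* lay below the collagen by 0.44 ± 0.09 (adjusted p = 0.0143), and *nid1* and *nid2* lay above it by 0.40 ± 0.07 and 1.29 ± 0.09 (adjusted p = 0.00617 and 3.11e-06). The *lama5* call was lost without scramble replicate 2 (0.0527) or 3 (0.0686) or *ptgs1*-KO replicate 2 (0.051) or 3 (0.0755). Between *ptges*-KO and *ptgs2*-KO cells, *lama5* relative to collagen was lower by 0.49 ± 0.09 (adjusted p = 0.00444), and *nid2* and *sparc* were higher by 0.32 ± 0.09 and 0.40 ± 0.11 (adjusted p = 0.031 and 0.0283), against 18.6% of all tested genes (15.8% higher, 2.83% lower). The *nid2* call was lost without replicate 1 or 2 of *ptgs2*-KO (0.086 and 0.0754) or replicate 2 or 3 of *ptges*-KO (0.0785 and 0.126), and the *sparc* call without replicate 2 or 3 of *ptges*-KO (0.109 and 0.0975). With length and GC trends removed the *sparc* value was 0.22 and did not pass (adjusted p = 0.0519).

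**Figure D4:**
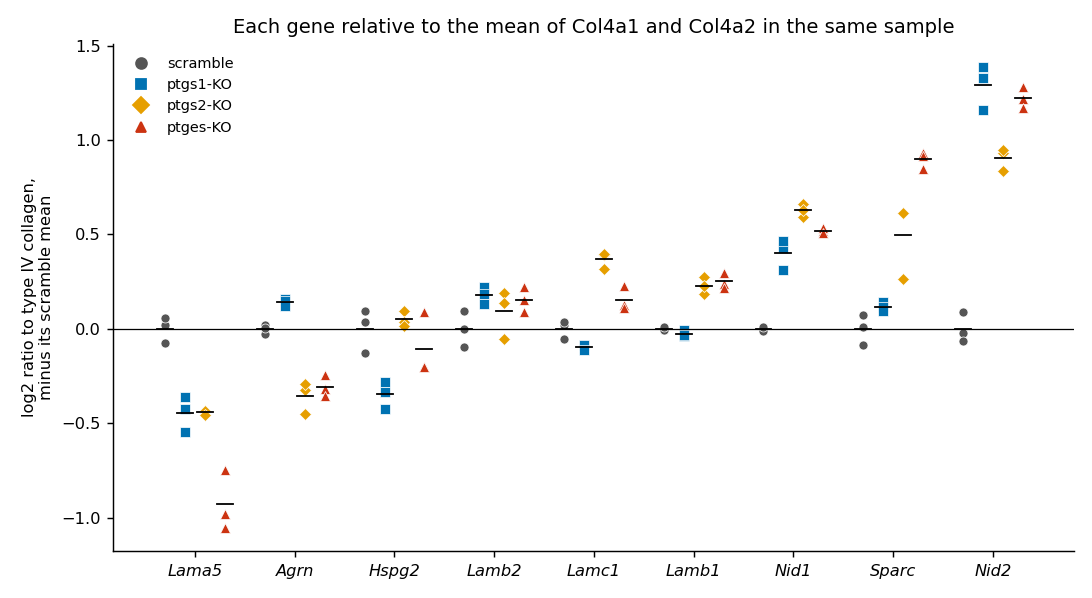
log2 level of each gene minus the mean log2 level of *Col4a1* and *Col4a2* in the same sample, with the scramble mean set to 0; points are samples and short lines are line means. *Lama5* in *ptges*-KO cells lies lowest (mean −0.93), and *Sparc* and *Nid2* lie above 0 in all 9 knockout samples.

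The whole profile over the 4 lines was also set against that of type IV collagen. For each of 11280 tested genes the root mean square distance between its centred line means and those of the collagen was taken, over 4 line means and with no test. The collagen profile was 0.29 in scramble, 0.33 in *ptgs1*-KO, −0.19 in *ptgs2*-KO and −0.43 in *ptges*-KO cells (log2, centred). The nearest genes were *lpin3*, *itpr3*, *tsx*, *gm5577* and *galnt11*, at distances of 0.02, 0.02, 0.03, 0.04 and 0.04. Among the basement membrane genes *lamb2* was nearest, with 0.284% of genes nearer, then *lamb1* (2.03%), *hspg2* (3.74%), *lamc1* (6.05%), *agrn* (10.9%) and *nid1* (17.5%). *lama5* had 47.5% of genes nearer, and its line means spanned 1.65 on the log2 scale, against 0.81 for *col4a1*. *sparc* (56.4%) and *nid2* (92.2%) were furthest away. The distance favors genes of small range over genes that move further in the same order.

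Other genes of the basement membrane were counted from lists by role. The lists were chosen with earlier results of these data known, so their counts are descriptive and no independent test. Of 10 basement membrane collagens 5 were tested. In *ptges*-KO cells 4 of these fell, *col4a1*, *col4a2*, *col4a5* (−0.48, adjusted p = 0.00854) and *col18a1*, the source of endostatin (−1.91, adjusted p = 2.46e-07), where 14.4% of all tested genes were lower. In *ptgs2*-KO cells *col4a1* fell and *col7a1*, the anchoring fibril collagen, rose from 2.10 ± 0.254 to 10.7 ± 1.74 RPKM (log2 change 1.91, adjusted p = 4.31e-07). There 5.17% of all tested genes were lower and 5.97% higher. In *ptgs1*-KO cells 0 of the 5 collagens passed in limma, also without adjustment. Of 11 further laminin and netrin genes 3 were tested. *ntn1*, encoding the guidance cue netrin-1, rose in *ptgs1*-KO cells (0.69, adjusted p = 0.00859).

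Of 15 receptors 12 were tested. *itga7*, the laminin-binding integrin alpha 7, fell from 198 ± 2.59 RPKM in scramble to 109 ± 13.5 in *ptgs2*-KO and 99.7 ± 4.63 in *ptges*-KO cells (−0.86 and −0.98, adjusted p = 9.68e-05 and 1.54e-05). The syndecan *sdc3*, a heparan sulfate proteoglycan of the cell surface, also fell in both lines (−0.58 and −1.24, adjusted p = 0.0118 and 2.23e-05), and so did the laminin receptor chain *itga6* (−0.55 and −0.46, adjusted p = 0.0218 and 0.0255). In all, 3 receptors fell and 0 rose in *ptgs2*-KO cells by limma (3 and 0 at an unadjusted p under 0.05), 4 fell and 1 rose in *ptges*-KO cells (*itga3* at −0.36, adjusted p = 0.0419, and *sdc2* at 0.63, adjusted p = 0.000722), and 1 rose in *ptgs1*-KO cells (*sdc4*, 0.42, adjusted p = 0.00487). Of all tested genes 5.17% fell in *ptgs2*-KO cells, 14.4% fell and 11.9% rose in *ptges*-KO cells, and 4.65% rose in *ptgs1*-KO cells. At an unadjusted p under 0.05 6 receptors fell and 2 rose in *ptges*-KO cells, and 3 rose and 1 fell in *ptgs1*-KO cells. By the Tukey test *itga6* and *itga3* did not pass in *ptges*-KO cells (adjusted p = 0.0864 and 0.0884), which left 2 falls. With length and GC trends removed *itga3* was −0.19 there (adjusted p = 0.051). The calls of *itga6* and *itga3* were each lost without single libraries (adjusted p up to 0.101 and 0.167 in *ptges*-KO, and up to 0.0916 for *itga6* in *ptgs2*-KO), as was that of *sdc3* in *ptgs2*-KO cells without scramble replicate 3 (0.0512) or *ptgs2*-KO replicate 3 (0.0509).

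Of 16 genes of assembly and turnover 9 were tested, and 5 fell in *ptges*-KO cells, against 14.4% of all tested genes. *pxdn*, whose product peroxidasin crosslinks type IV collagen, fell from 292 ± 12.9 to 147 ± 22.4 RPKM (−0.99, adjusted p = 0.000132). The heparan sulfate enzymes *ndst1* and *sulf2* fell by 0.53 and 1.14 (adjusted p = 0.00963 and 4.66e-06), the matrix protein nephronectin, *npnt*, fell by 1.51 (adjusted p = 4.23e-05), and the membrane protease *mmp14* fell by 0.30 (adjusted p = 0.0488). In *ptgs1*-KO cells *sulf2*, *npnt* and *mmp14* fell (−0.83, −1.17 and −0.41, adjusted p = 0.000141, 0.000645 and 0.0266), where 4.61% of all tested genes were lower. In *ptgs2*-KO cells *sulf2* and *npnt* rose (0.37 and 1.15, adjusted p = 0.0338 and 0.000885) and the heparanase gene *hpse* fell by 0.64 (adjusted p = 0.000231). Of all tested genes 5.97% were higher and 5.17% lower in that line. By the Tukey test on RPKM only *pxdn* and *sulf2* of the 5 passed in *ptges*-KO cells (adjusted p = 0.11 for *npnt*, 0.0511 for *ndst1* and 0.0564 for *mmp14*), and *npnt* did not pass in *ptgs1*-KO cells (adjusted p = 0.186). The log2 ratio of the mean RPKM of *npnt*, with no pseudocount, was −2.75 in *ptges*-KO and −1.88 in *ptgs1*-KO cells. The *mmp14* calls (adjusted p up to 0.105 in *ptgs1*-KO and 0.159 in *ptges*-KO) and the *sulf2* call in *ptgs2*-KO cells (up to 0.125) were lost without single libraries. Of 7 relatives of *sparc* only *fstl1* was tested, and it rose in *ptgs1*-KO cells (0.44, adjusted p = 0.00871).

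**Figure D5:**
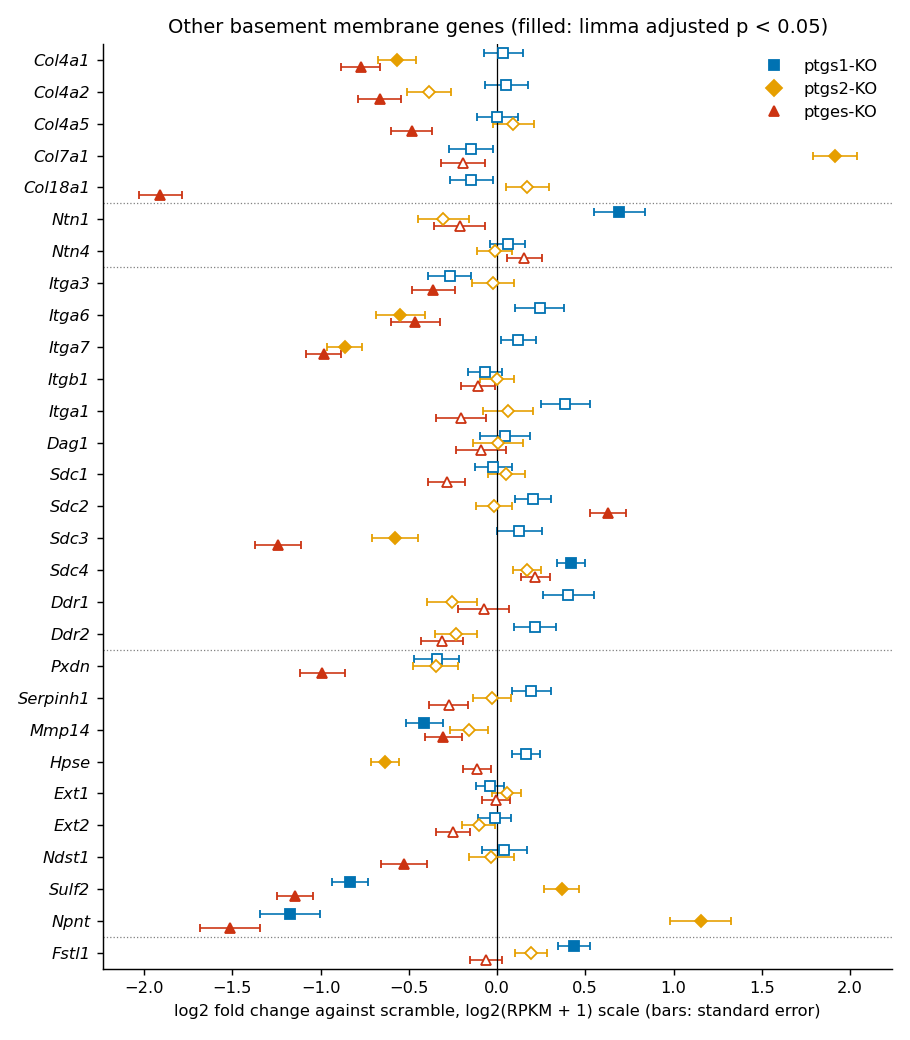
log2 fold change against scramble, log2(RPKM + 1) scale, of tested genes of the other basement membrane lists, separated by dotted lines into collagens, netrins, receptors, assembly and turnover, and the *Sparc* family; bars are standard errors and filled symbols have a limma adjusted p under 0.05. *Col18a1* lies at −1.91 in *ptges*-KO cells and *Col7a1* at 1.91 in *ptgs2*-KO cells.

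Other quantities moved with these results. Of the 10 genes, 6 have an annotated transcript of at least 6000 bases, among them *lama5* with 11388 and *hspg2* with 14187 bases. Over 1558 tested genes that long, the median deviation of a sample from the mean of all samples ran from −0.22 to 0.05 in *ptges*-KO cells and from −0.05 to 0.10 in scramble cells (log2). With length and GC trends removed, the falls in *ptges*-KO cells were 1.34 for *lama5*, 0.81 for *agrn*, 0.48 for *hspg2*, 0.43 for *lamc1*, 0.38 for *lamb1* and 0.37 for *lamb2*, and all 6 still passed the test (largest adjusted p = 0.00078). *ptges*-KO replicate 1 was the highest sample of its line for all 9 tested genes, where it was highest for 55.2% of all tested genes, and *ptgs1*-KO replicate 1 likewise (54.9%). *ptgs2*-KO replicate 1 was the highest of its line for 8 of the 9 (47.6% of all tested genes) and scramble replicate 2 for 7 of the 9 (20.4%). Fibroblast markers summed to between 17.5 and 24.0 RPKM in scramble, 23.9 and 35.4 in *ptgs1*-KO, 9.72 and 11.5 in *ptgs2*-KO and 9.56 and 13.1 RPKM in *ptges*-KO cells, through *pdgfra* and *pdgfrb*. Of the other 4 fibroblast markers *dcn* and *lum* were at 0 in every sample, and *col1a1* and *col1a2* reached at most 1.10 and 0.43 RPKM. The part of these quantities in the results above was not tested further.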

How the data were processed

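RNA from 3 samples of each of 4 murine melanoma lines was sequenced as paired reads of 101 bases on a HiSeq 2500 (mm10, per the submitters' processing notes). The aligner and annotation are not given in the sources used here. The labels name both a TruSeq and a NEXTflex directional library kit, and a Direct-zol RNA kit where the study's methods name RNeasy. The authors deposited gene levels with 2 decimals that were taken as RPKM, a unit scaled for transcript length and sequencing depth. The study's legends name RPKM and its methods speak of normalized counts, so levels compared between genes and sums of chains rest on that reading. No counts were analysed. Depth was estimated from the steps of low values and is approximate. RPKM make genes comparable per length, and their totals were close, from 878504 to 903881 per sample, so that a rise in abundant genes can lower the rest.

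Levels were analysed as log2(RPKM + 1) for the 11282 genes whose mean reached 1 RPKM, in 1 limma fit (version 3.58.1, R 4.3.3, lmFit and eBayes with trend) over all 12 samples. Benjamini-Hochberg adjustment covered all tested genes, and an adjusted p under 0.05 counted as passing. Fold changes are on the log2(value + 1) scale. The same fit was made on the log2 ratio to type IV collagen. The main fit had no replicate block. By the correlation of deviations over tested genes, same-numbered samples went together most for *ptgs2*-KO with *ptges*-KO cells (0.57, 0.11 and 0.25, mean 0.31). The mean was 0.13 for *ptgs1*-KO with *ptgs2*-KO cells (0.06, 0.28 and 0.05) and 0.07 for *ptgs1*-KO with *ptges*-KO cells. For scramble with each knockout line it was below 0. These correlations were not tested, and no label says what a number marks. Ratios of summed chains were compared by exact permutation tests of the spread between the 4 lines, which has no direction and compares no single pair. The scripts were tested on simulated data.

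The genes and lists were chosen with earlier results of these data known. Named were the 10 genes, the targets, the basement membrane collagens, genes of the role lists with an adjusted p under 0.05 in at least 1 comparison, and the 5 genes nearest to the collagen profile. The result of 1 listed gene is not reported here. Gene positions and transcript lengths were from GENCODE M21, which matched 94.6% of the tested genes. Alternatives covered the pseudocount, the filter, scaling, the groups fitted, the variance model, the replicate block, each sample left out, a Tukey test on RPKM and the collagen reference, and, added after the data were seen, removal of length and GC trends. Figures were drawn with matplotlib 3.10.9 under Python 3.11.15. No sample column was left unused (0).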

Additional observations from a re-analysis of the deposited data

Results flagged for a closer look

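The change of *lama5* against scramble differed between *ptges*-KO and *ptgs2*-KO cells by −0.73 on the log2 scale, tested as the contrast between the lines (limma adjusted p = 0.00779). The change of *lamc1* differed likewise by −0.46 (adjusted p = 0.0393). Both knockout changes use the same scramble samples, so that these differences equal the contrast between both knockout lines given in the report.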

How the results depend on the processing

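Genes and their ratios to type IV collagen were recomputed under each alternative. The 4 ratios compared by permutation tests were not recomputed. Of the recomputed values, 2533 kept direction and side of the threshold, 136 lost a call, 34 gained one and 23 changed sign, none of the last passing the test. The number of the 9 genes past the threshold in *ptgs1*-KO cells was 2, or 1 with no filter on low values, 3 after median ratio scaling, after quantile normalization and by the Tukey test, and 4 with length and GC trends removed, with or without the replicate block. In *ptgs2*-KO cells it was 4, or 3 with no filter and by the Tukey test and 6 with length and GC trends removed, where *lamb1* and *hspg2* joined. Between *ptges*-KO and *ptgs2*-KO cells it was 2, or 1 with no filter, 1 with only those lines fitted, 1 without a variance trend, 0 by the Tukey test, and 3 under median ratio scaling, quantile normalization, the total without the 20 highest genes, the replicate block and removal of length and GC trends; relative to collagen it was 3, or 1 with no filter and 0 with only those lines fitted. Leaving out each sample in turn gave 1 to 2 genes in *ptgs1*-KO, 2 to 4 in *ptgs2*-KO and 6 to 7 in *ptges*-KO cells, 1 to 4 between the last 2 lines and 5 to 8 by the F test, and relative to collagen 2 to 4, 6 to 7, 6 to 7 and 1 to 4. The Tukey test also ended the calls of *nid2* in *ptgs2*-KO (adjusted p = 0.272) and *ptges*-KO cells (0.16), and of *lama5* between the last 2 lines (0.0907). With length and GC trends removed, the calls kept their direction but in the contrast of both lines *lama5* and *lamc1* were −0.48 and −0.29, *col4a2* in *ptges*-KO cells −0.43, *sparc* relative to collagen in the contrast of both lines 0.22 (adjusted p = 0.0519, or 0.0657 when blocked as well), and *lamb1* relative to collagen in *ptgs2*-KO cells 0.15 (adjusted p = 0.0511 when blocked as well). Relative to collagen, *hspg2* in *ptgs1*-KO cells (−0.35, adjusted p = 0.0705) passed in 6 of 25 settings and *lamc1* between the last 2 lines (−0.21, adjusted p = 0.0679) in 5. Median ratio scaling moved the split of all genes between *ptges*-KO and *ptgs2*-KO cells from 763 higher and 1110 lower to 1240 and 1260.

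Signs changed for small differences that missed the threshold. With length and GC trends removed, with or without the block, *lamb1* in *ptgs1*-KO cells was −0.033, *agrn* between *ptges*-KO and *ptgs2*-KO cells 0.0095, *hspg2* relative to collagen in *ptges*-KO cells 0.023, and *lamb1* relative to collagen between those lines −0.024, the last being −0.045 after quantile normalization. With *col4a5* in the collagen mean, *lamb2* and *hspg2* in *ptgs2*-KO cells were −0.10 and −0.14 relative to it, and *nid1* between the last 2 lines 0.0021. Leaving out single samples gave −0.035 to 0.080 for *lamb1* and −0.12 to 0.018 for *lamc1* in *ptgs1*-KO cells, −0.24 to 0.029 for *lamc1* and −0.029 to 0.074 for *sparc* in *ptgs2*-KO cells, and −0.022 to 0.16 for *nid2* between the last 2 lines. Relative to collagen it gave −0.014 to 0.096 for *hspg2* in *ptgs2*-KO cells, and −0.0013 to 0.044 for *lamb1* and −0.011 to 0.11 for *lamb2* between the last 2 lines. The causes were not tested.

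Same-numbered samples correlated most for *ptgs2*-KO with *ptges*-KO cells, less on average for *ptgs1*-KO with either, and not on average for scramble with any knockout line. Those of scramble and *ptges*-KO cells had correlations of −0.34, −0.19 and −0.17. With the replicate block 2, 4 and 7 of the 9 genes passed in the *ptgs1*, *ptgs2* and *ptges* knockouts, as without it, and 3 in place of 2 between the last 2 lines, the gain being *nid1*; the block changed no other call of the 9 genes, also relative to collagen. The values of *lama4* lay below the level of 3 reads in every sample and could not be compared between lines.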
